A study of Mus musculus with 2 samples.

Results

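The goblet cells described here were chosen by a rule on their transcripts, not by a label in the deposited files. Each filtered barcode received a goblet score from Muc2, Fcgbp, Tff3, Zg16 and Spink4 and a Paneth score from Lyz1, Defa17, Defa24, Ang4 and Itln1, each the mean of log1p(counts per 10000) over its 5 genes. Barcodes in the top 100 by either score were taken, 148 in all, and the 64 that ranked better by the goblet score than by the Paneth score are the members. They were 64 of 2145 filtered barcodes and 3409 deposited barcodes. The levels of those 10 genes, and of every other gene in members against other cells, are therefore given as a description with no test. The cells came from mouse distal small intestinal organoids, which are epithelial cultures grown from crypts, and all of them carried the Neurog3-RFP and Gcg-Venus reporter alleles. The groups compared were 2 control cultures and 3 Etv1 mutant cultures, described in the labels as biological replicates and called controls and mutants below. The cells of each culture were sorted, tagged with their own hashtag oligo, pooled and sequenced as 1 RNA library. The sort gate, the nature of the Etv1 mutation, the culture medium and the age of the donor mice are not given in the sources used here.

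Goblet cells are secretory cells of the intestinal epithelium that build the mucus layer. They fold, disulfide-bond and heavily O-glycosylate the gel-forming mucin Muc2 in the endoplasmic reticulum and Golgi, pack it into granules and release it with partner proteins such as Fcgbp, Tff3, Zg16 and Clca1. They arise from crypt progenitors that escape Notch signalling and express Atoh1, and Spdef drives their maturation. Paneth cells, the antimicrobial cells of the crypt base, come from the same Atoh1-expressing progenitors, and cells that carry granules of both kinds are known as intermediate cells.

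The promoters of Muc2, Fcgbp and Agr2 are shown because Muc2 and Fcgbp helped to choose the members and Agr2, an endoplasmic reticulum protein needed for mucin folding, was the gene whose level among members followed Muc2 most closely. Each line gives the 250 bases before the annotated start of the gene, 5′ to 3′ on the plus strand, from RefSeq on GRCm38.p6. Of 7 genes looked up, 4 had an entry.
Muc2, chr7:141690090-141690339: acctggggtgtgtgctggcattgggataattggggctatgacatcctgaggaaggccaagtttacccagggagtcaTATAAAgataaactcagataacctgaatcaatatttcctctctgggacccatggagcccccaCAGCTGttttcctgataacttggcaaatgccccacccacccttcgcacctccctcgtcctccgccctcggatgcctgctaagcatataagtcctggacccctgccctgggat
Fcgbp, chr7:28070986-28071235: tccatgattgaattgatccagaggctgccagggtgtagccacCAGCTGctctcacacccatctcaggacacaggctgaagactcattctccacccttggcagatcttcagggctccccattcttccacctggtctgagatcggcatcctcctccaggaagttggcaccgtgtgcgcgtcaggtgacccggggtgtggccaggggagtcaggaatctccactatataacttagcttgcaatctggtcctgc
Agr2, chr12:35992675-35992924: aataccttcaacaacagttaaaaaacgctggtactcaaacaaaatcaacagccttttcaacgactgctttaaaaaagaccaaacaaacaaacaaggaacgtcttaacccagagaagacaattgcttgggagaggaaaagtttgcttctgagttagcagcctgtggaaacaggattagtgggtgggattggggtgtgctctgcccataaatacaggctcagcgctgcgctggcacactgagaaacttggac
Capitals mark the motifs CAGCTG and TATAAA, searched with CCGGAA on both strands, and no 2 matches overlapped. CAGCTG is an E-box, the kind of site that basic helix-loop-helix factors such as Atoh1 read, TATAAA is the core of a TATA box, and CCGGAA holds the core of the sites of ETS factors, the family of Etv1. The E-box occurred once in the Muc2 window, 112 bases before the start, and once in the Fcgbp window, 208 bases before it, and it occurred in 13.0% of 32851 promoters of the same length. TATAAA occurred once, in Muc2, 174 bases before the start, and in 12.4% of all promoters. CCGGAA (12.03% of all promoters) was in none of the 3 windows. These matches describe the letters only.

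Of the 64 members, 45 carried the hashtag of 1 culture, 7 carried several hashtags and 12 carried none. Control culture 1 held 9 members, control culture 2 held 14, and mutant cultures 1 to 3 held 8, 5 and 9. Hashtag signal was thin: the median member had 82.5 hashtag counts, of which its leading hashtag held 45.3%, against 77 counts and 43.6% in all filtered barcodes. A second assignment method placed 23 of the 45 in the same culture, none in another culture and 22 in several or none. It kept 4 of 9, 7 of 14, 3 of 8, 3 of 5 and 6 of 9 members in the order of cultures above. The median member had 18346 estimated counts and 3953 genes, against 13680.5 counts in the Paneth class, 22715.5 in the enterocyte class and 23380 in all other filtered barcodes. The member richest in RNA held 50991 counts. Summed over members, the cultures held 243383, 238849, 141923, 89143 and 207603 counts, so the mutant culture with 5 members gives the least precise levels.

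**Figure D1:**
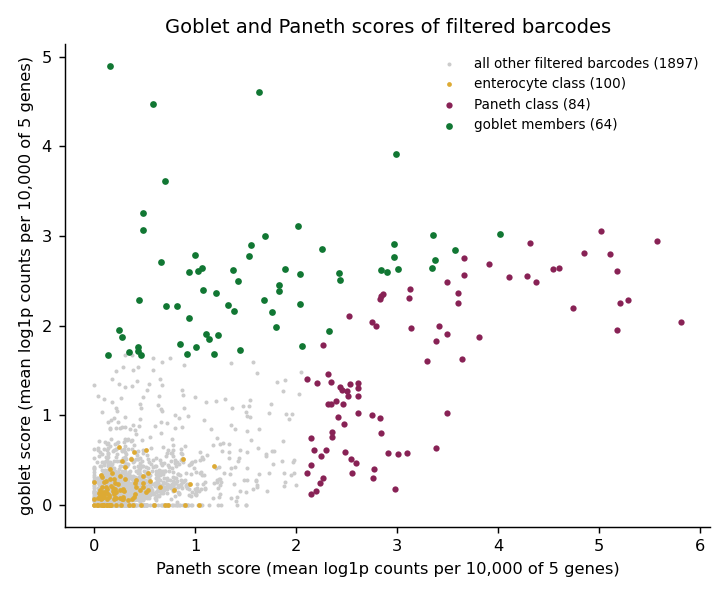
Goblet score (vertical) against Paneth score (horizontal), both as the mean log1p(counts per 10000) of 5 genes, for each filtered barcode. The 64 members (green) spread from the left edge, with Paneth scores near that of ordinary cells, to a Paneth score of 4.01 beside the Paneth class (84 barcodes, purple), and 3 members stand apart above a goblet score of 4.

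The scores ran from one kind of cell into the other. The goblet score of members ran from 1.67 to 4.90 with a median of 2.50, against a median of 0.13 in the other filtered barcodes. The barcode at rank 100 scored 1.6745 and the next barcode scored 1.6702, so the lower limit of the class is not a gap. All 64 members were in the top 100 by the goblet score, and 16 of them were in the top 100 by the Paneth score as well. A further 36 barcodes of the goblet top 100 ranked better as Paneth cells and were left out. The closest member ranked 81 by the goblet score and 83 by the Paneth score, and the closest barcode left out ranked 14 by both.

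The label was checked against 8 goblet genes that the rule did not use. Levels are counts per 1000000 (CPM) of the counts summed over the members of a culture, and folds are ratios of (CPM + 10) to the same in all other assigned cells of that culture. Agr2, Spdef, Rep15, Sytl2, Ern2 and Creb3l1 were at least 2-fold higher in members in all 5 cultures, a pattern seen in 0.708% of 12988 genes. Foxa3, a forkhead factor of goblet cells, stood at 106 to 247 CPM in members and 49.3 to 65.9 in other cells, and in the culture with the smallest difference its log2 ratio was 0.85. Clca1, a secreted protease of mature goblet mucus, was found in 7 members, and 1 of them held 86.2% of its counts. Against all other assigned cells the label therefore held for the secretory programme, while the transcripts of mature mucus were found in few cells. The Paneth class shared part of this programme. Pooled levels in members, the Paneth class and all other filtered barcodes were 5239, 2215 and 197 CPM for Agr2. For Spdef they were 140, 60.1 and 1.44 CPM.

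Spink4, Tff3 and Fcgbp carried the class. Spink4 is a small secreted peptide of the Kazal inhibitor family, found in goblet and deep crypt secretory cells, and its level in members was 10140.4 CPM in control culture 1, 14361 in control culture 2 and 7483, 15346 and 7534 in mutants 1 to 3. Tff3, the trefoil peptide of intestinal mucus, stood at 6073 and 10203 CPM in controls and at 5503, 9659 and 5915 in mutants. Fcgbp, a large disulfide-bonded mucus protein, stood at 1269.6 and 3831 CPM in controls and at 1437, 3612 and 2211 in mutants. For all 3 genes the 2 highest cultures were control culture 2 and mutant culture 2, and the ranges of control and mutant cultures overlapped. Each of these 3 genes had a count in 64 of 64 members. In GENCODE vM21 on mm10 the protein-coding genes lie on chromosome 4 (Spink4, 40920052 to 40931395, plus strand), chromosome 17 (Tff3, 31125306 to 31129646, minus strand) and chromosome 7 (Fcgbp, 28071236 to 28120862, plus strand).

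To set detection beside that of cells that should lack these genes, every filtered barcode was thinned to 3000 counts. At that depth Spink4 was found in 100% of members (95% exact interval 94.4 to 100%), in 91.7% of the Paneth class and in 18% of the enterocyte class (100 barcodes chosen by absorptive genes). Fcgbp was found in 95.3% of members (86.9 to 99.02%), in 51.2% of the Paneth class and in 4% of the enterocyte class. The enterocyte class should lack both genes, and its share is given as the background. Both genes helped to choose the members, and the enterocyte class was taken from outside the goblet and Paneth top lists. The gaps between these shares therefore follow at least in part from how the cells were chosen, and the same holds for Muc2 below. These intervals cover counting error over cells only, not the spread of cultures.

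Muc2, the gel-forming mucin itself (chromosome 7, 141690340 to 141754693, plus strand), was present in a minority of members. It had a count in 29 of 64 members and at least 10 counts in 9. Summed levels were 74.0 CPM in control culture 1, 904 in control culture 2 and 70.5, 78.5 and 57.8 in mutants 1 to 3, against 0.76 to 5.58 CPM in other cells. Control culture 2 thus stood apart from the other 4 cultures, which lay close together. Of its 216 Muc2 counts, 116 came from 1 member, and 9 of its 14 members had a count. After thinning, Muc2 was found in 23.4% of members (13.8 to 35.7%), in 13.1% of the Paneth class and in 0% of 100 enterocyte-class barcodes, of which 1% had a count before thinning.

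Zg16, a lectin-like protein of the mucus that binds bacterial walls, marked 3 cells. It had a count in 5 members, with 341, 242 and 263 counts in the 3 that ranked highest by the goblet score. Zg16 and Muc2 both enter that score, so their counts raise the rank by themselves. The first of the 3 cells belonged to control culture 2 and the other 2 to no single culture (several hashtags and none). These 3 cells also held 64, 139 and 43 Muc2 counts, and the first held 50 Clca1 counts. Their Lyz1 counts were 1, 29 and 29, beside a median of 26.5 over all members, and the second also held 177 counts of Itln1. Zg16 was 0 in the members of control culture 1 and of all 3 mutant cultures, where 0 counts allow up to 12.3, 21.1, 33.7 and 14.5 CPM.

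**Figure D2:**
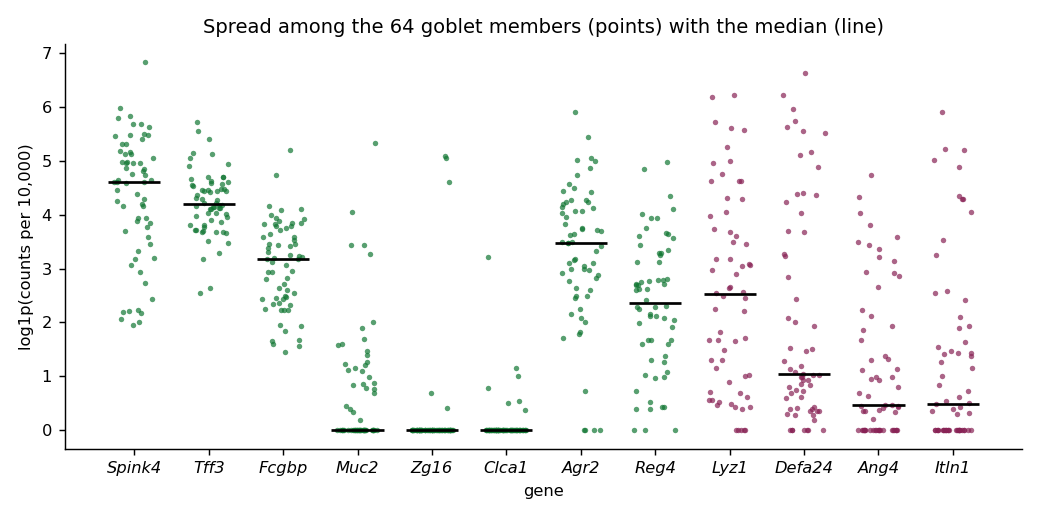
Level of 12 genes in each of the 64 members, as log1p(counts per 10000), with the median as a line. Goblet genes are green and Paneth genes purple. Spink4, Tff3 and Fcgbp are above 0 in every member, Muc2, Zg16 and Clca1 have a median of 0, and the Paneth genes spread over the whole range.

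Paneth transcripts were common among the members. Lyz1, the secreted lysozyme of Paneth cells, had a count in 59 members, at least 10 counts in 37 and at least 100 in 16. Its summed level was 1166 and 8949 CPM in controls and 1952, 8659 and 2688 in mutants, so that control culture 2 and mutant culture 2 were again the highest. Lyz1 and Fcgbp occurred in the same barcode, at 3000 counts each, in 68.8% of members, 47.6% of the Paneth class and 2% of the enterocyte class. Both genes were used by the rule, so these shares follow in part from how the classes were chosen. At that depth Lyz1 alone was found in 71.9% of members, 90.5% of the Paneth class, 8% of the enterocyte class and 12.7% of other barcodes. Defa24, an alpha-defensin, was found in 53.1% of members after thinning (40.2 to 65.7%) but also in 20% of the enterocyte class and 28.6% of other barcodes. Alpha-defensins are near-identical copies of each other, and how reads were shared among them bears on their values.

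The other Paneth genes divided the members unevenly. Ang4, a ribonuclease-like antimicrobial protein, had a count in 42 members, which is 65.6% against 19.5% of other barcodes. Itln1, a lectin of goblet and Paneth cells, had a count in 38, which is 59.4% against 40.5%. Defa17 had counts in 46 members (71.9%), no larger a share than the 72.3% of other barcodes. After thinning, Defa17 was found in 23.4% of members and 16.1% of other barcodes. Of all its counts in members before thinning, 1 member held 47.3%. Of 11 Paneth markers outside the rule that could be compared, 1 was at least 2-fold higher in all cultures, and the median log2 ratio was 1.20. Defa30, another alpha-defensin and the most abundant of them, had a count in 38 members and stood at 45.0 to 2573 CPM. Mmp7, the protease that activates defensins, had a count in 44 members and stood at 11.2 to 996 CPM. Clps, a colipase, had a count in 28 members and Nupr1, a stress-response factor, in 43. Defa22 had a count in 9 members, Defa29 in 2 and Lyz2 in 10. Across the 64 members Lyz1 and Muc2 had a Spearman rho of 0.13, and 5 members held at least 10 counts of both while 4 held at least 10 of Muc2 and fewer of Lyz1. The members hold both a goblet and a Paneth component, and they are called goblet cells here by the rule.

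Outside the rule genes, the highest ratios in members included the mucin folding gene Agr2, the goblet factor Spdef and the secretory progenitor factor Atoh1. Relative to other assigned cells, 92 of 12988 genes (0.708%) were at least 2-fold higher in all 5 cultures and 67 (0.516%) at least 2-fold lower. Of the 92, 6 were rule genes. The 20 largest of the others, by pooled log2 ratio, were Tpsg1, Agr2, Selenom, Reg4, Ccl9, Spdef, Hpd, 5330417C22Rik, Kit, Hepacam2, Rnase1, Fxyd3, Slc12a8, Cbfa2t3, Ccl6, Ern2, Pla2g2a, Atoh1, Wnt3 and Sytl2. Agr2 was at 3501 and 5552 CPM in controls and at 3720, 6035 and 4277 in mutants, with 204 to 289 CPM in other cells. Tpsg1, a membrane-anchored tryptase, was at 113 to 494 CPM in members and at 2.78 to 6.55 CPM in other cells. Pooled over cultures, it was at 289 CPM in members and 128 in the Paneth class. Several of the 20 were as high in the Paneth class: pooled levels in members and in the Paneth class were 170 and 350 CPM for Ccl6, 147 and 309.2 for Pla2g2a, 343 and 379 for Rnase1, and 147 and 138 for Hpd. The levels of members and other cells did not overlap in any culture for either gene, which the choice of members can give by itself.

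Fate regulators of the secretory lineage stood higher in members than in other cells. Spdef, the ETS-family factor that drives goblet and Paneth maturation, had a count in 55 members, with 98.6 and 209 CPM in controls and 155, 191 and 106 in mutants, against 1.002 to 5.81 in other cells. Atoh1, the master factor of all secretory cells, had a count in 38 members (67.3 to 142 CPM, against 3.90 to 5.80). Creb3l1, a membrane-bound factor of secretory capacity, was at 140 to 348 CPM and Klf4, a zinc-finger factor of terminal differentiation, at 106 to 281 CPM. In all, 6 of 12 goblet transcription factors were at least 2-fold higher in all cultures, and none was lower. The median log2 ratio of the list was 1.68, against −0.02 over all genes compared. The pooled sum of the list was 1397 CPM in members, 815 in the Paneth class and 356 in all other filtered barcodes. Xbp1 and Hes6, regulators of the secretory load and of Notch-low cells, had smaller ratios, from 0.71 and 0.05 at the least.

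Among genes of Notch signalling, 1 ligand was higher in members. Dll1, a Notch ligand presented by secretory progenitors, was at 46.1 to 100.96 CPM in members and at 1.72 to 6.82 in other cells, with a count in 37 members. Olfm4, a Notch-dependent stem cell gene, was low in members: 238 and 58.6 CPM in controls and 712, 78.5 and 289 in mutants, against 1241 to 1730 in other cells. Of 17 genes of the Notch and lineage list, 2 were at least 2-fold higher (Atoh1 and Dll1) and 1 lower (Olfm4) in all cultures. The median log2 ratio of that list was 0.22.

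Genes of deep crypt secretory cells were all higher in members than in other cells, but the Paneth class shared them. Such cells lie between the stem cells of the colon, and Reg4, Kit and Cd24a are their usual marks. Reg4, a secreted lectin that small intestinal enteroendocrine cells also make, had a count in 61 members. It stood at 1150 and 1620.3 CPM in controls and at 1205, 2322 and 1059.7 in mutants. Kit, the stem cell factor receptor, was at 127 to 163 CPM in members and at 2.97 to 8.59 in other cells. Cd24a, a surface glycoprotein, was at 525 to 1088 CPM in members. All 3 genes of the list were at least 2-fold higher in all 5 cultures, with a median log2 ratio of 3.29. Their pooled sum was 2349 CPM in members and 1956 in the Paneth class, and Reg4 alone was at 1504 and 1446.

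**Figure D3:**
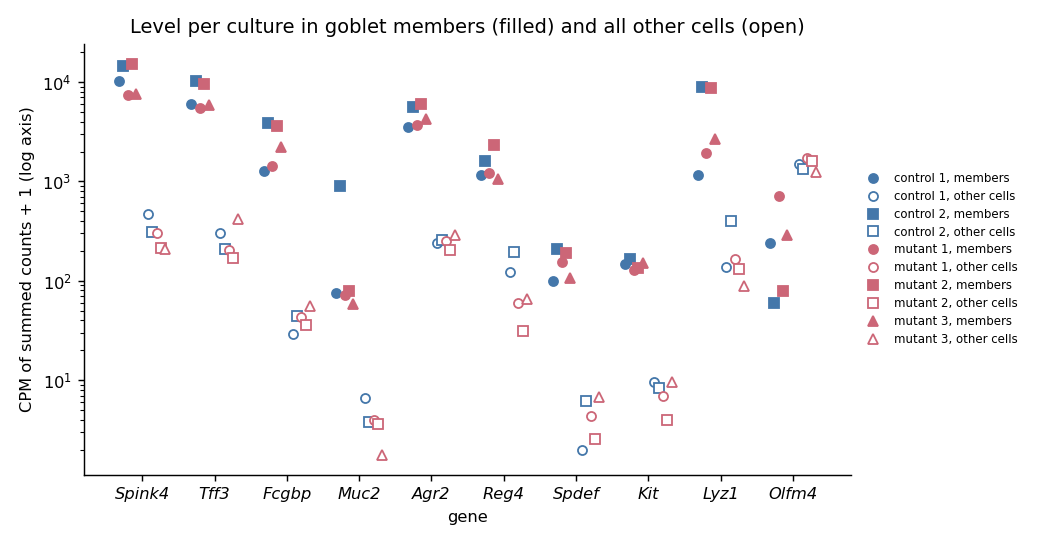
Level of 10 genes in members (filled) and in all other assigned cells (open) of each culture, as CPM + 1 on a log axis, with control cultures in blue and mutant cultures in red. Members stand above other cells in every culture for all genes shown except Olfm4, where they stand below, and for Muc2 control culture 2 stands apart.

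The machinery for making and exporting mucin was higher in members in part. Of 18 genes of the goblet cell body, 11 were at least 2-fold higher in all cultures, with a median log2 ratio of 1.92. Examples are Hepacam2 (96.3 to 269 CPM in members and 7.12 to 15.9 in other cells), Smim14 (211 to 373 CPM) and Tspan13, a tetraspanin (197 to 301 CPM). Among secreted proteins of goblet cells 6 of 9 compared were higher, with a median of 2.81. Guca2a, the guanylin that regulates fluid secretion, was at 1229 to 2300 CPM in members, and Klk1, a kallikrein protease, was at 303 to 553. Retnlb, Wfdc2, Tff1, Muc5ac and Muc6 had no count in any member, which allows a share of up to 4.69% of members with a count.

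Of the genes for folding and disulfide bonds in the endoplasmic reticulum, 7 of 28 were at least 2-fold higher in all cultures and none was lower, with a median log2 ratio of 1.09. The pooled sum of this list was 7693 CPM in members, 5413 in the Paneth class and 3151 in all other filtered barcodes. Ern2, the stress sensor restricted to mucous epithelia, was at 53.4 to 142 CPM in members and at 2.65 to 5.30 in other cells. Pdia3, a disulfide isomerase, was at 744 to 1290 CPM in members and at 365 to 393 in other cells, and Calr, a glycoprotein chaperone, at 608 to 998 against 232 to 259. Hspa5, the general chaperone of the compartment, was at 676 to 1066 CPM against 372 to 441 and did not reach 2-fold in every culture. Txndc5, Qsox1 and Pdia5, named after their values were seen, had log2 ratios of at least 2.07, 2.32 and 2.10 in every culture. All 3 form or rearrange disulfide bonds.

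Mucin glycosylation and transport genes had lower ratios. Of 36 O-glycosylation genes compared, 4 were at least 2-fold higher in all cultures, with a median log2 ratio of 0.54. Galnt7, an enzyme of mucin O-glycosylation, was at 140 to 348 CPM in members and at 43.2 to 54.1 in other cells. Gcnt3, the branching enzyme of mucin glycans, was at 148 to 270 CPM against 50.1 to 79.0, and C1galt1c1, the chaperone of the core enzyme, at 82.2 to 314 against 33.1 to 43.1. Of 31 genes for translocation and Golgi transport, 3 were higher, with a median of 0.93, and Sec61b, a subunit of the translocation channel, was at 853 to 1391 CPM against 504 to 541. Of 15 granule exocytosis genes only Sytl2 was higher by this measure, while Rab3d, a granule GTPase, was at 61.6 to 176 CPM against 22.8 to 28.6. Of 4 transmembrane mucins with enough counts, only Muc13 was higher (378 to 641 CPM against 137 to 175).

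**Figure D4:**
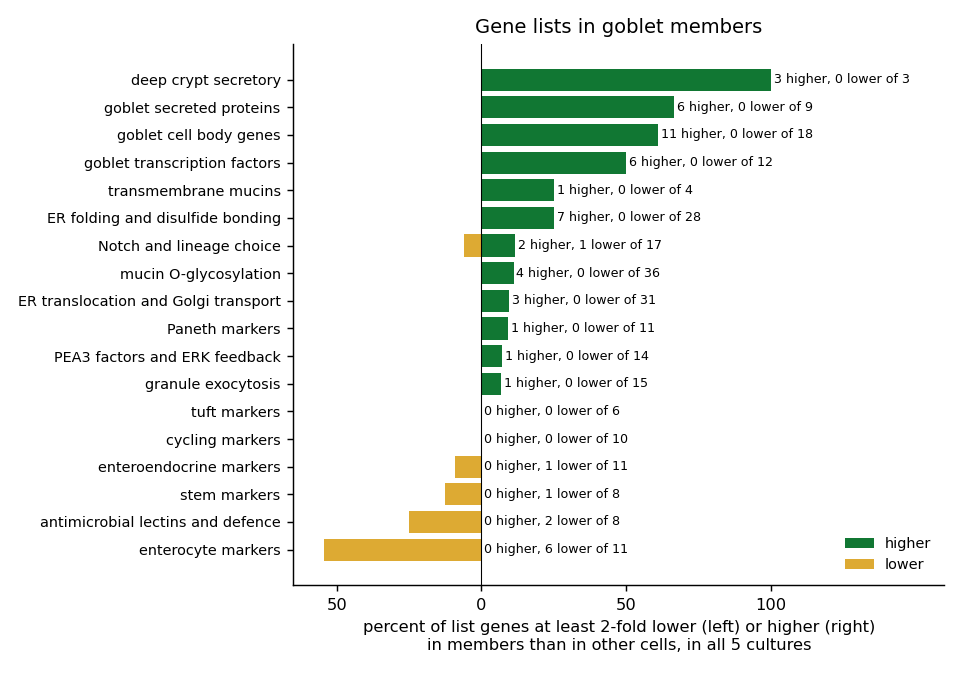
Percent of the genes of each list that were at least 2-fold higher (right, green) or at least 2-fold lower (left, yellow) in members than in other assigned cells in all 5 cultures. The 3 deep crypt secretory genes, the secreted proteins and the cell body genes lead, 6 of 11 enterocyte genes are lower, and over all genes the shares are 0.708% higher and 0.516% lower.

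Markers of other cell types were mostly low. No member had a count of any of 7 tuft markers, and of 5 mesenchymal markers only 1 had a single count. Of 6 immune markers Ptprc, Cd3e, Cd8a, Cd79a and Fcer1g were 0 and Lyz2, a lysozyme that Paneth cells share, had counts in 10 members. Of 11 enterocyte markers compared, 6 were at least 2-fold lower in all cultures, and the summed level of that list was 530 CPM in members against 28854 CPM in the enterocyte class. Reg3b, an antibacterial lectin of enterocytes, had a count in 10 members and stood at 0 to 14.5 CPM in members against 65.5 to 752 in other cells. Stem and cycling lists had median log2 ratios of −0.23 and −0.78. Lgr5, the stem cell receptor, had a count in 41 members, at 40.9 to 127 CPM against 73.6 to 138.

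Several hormone transcripts were high in single members, while Sct was found more widely. Of the members, 3 held at least 3 counts of Chga, Chgb or Neurod1, and 1 of these was assigned to a culture. One, of mutant culture 3, held 519 counts of Gcg, 180 of Ghrl, 24 of Chga and 11 of Etv1, and another, with no hashtag, held 1450 counts of Gcg, 804 of Nts and 767 of Sct. Their goblet ranks were 89 and 99, close to the limit of the class, and neither had a Muc2 count. Neurog3, among the enteroendocrine markers of highest CPM in members, had a count in neither of them, so its counts came from other members. Sct, the hormone secretin, had a count in 50 members. Thinning left Sct in 46.9% of members (34.3 to 59.8%) against 35.7% of the Paneth class and 8% of the enterocyte class. Its level was 551 and 243 CPM in controls and 359, 224 and 308.3 in mutants.

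Members also differed in cell cycle transcripts by culture. At least 10 counts over 10 cycling markers were found in 4 of 9 members of control culture 1, 0 of 14 of control culture 2, and 2 of 8, 0 of 5 and 3 of 9 of mutant cultures 1 to 3. The summed cycling level was 1178 and 142 CPM in controls and 1339, 247 and 670 in mutants. The 2 cultures with the lowest cycling level, control culture 2 and mutant culture 2, were those with the highest Spink4, Tff3, Fcgbp and Lyz1 and the lowest Olfm4. This ordering crosses the genotypes and rests on 5 cultures.

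Genes that varied with Muc2 among the 64 members were found by Spearman rho over 3141 genes with a count in at least 32 members. Agr2 had the highest, 0.61, followed by Gm1123 (0.58), Degs2 (0.54), Ddx50 (0.53), Tspan1 (0.51), Tmed10 (0.51), Ddost (0.51) and Cgref1 (0.51). Degs2 makes phytoceramide, Tspan1 is a tetraspanin, Tmed10 is a cargo receptor of early transport and Ddost a subunit of the N-glycan transferase. Fcgbp, Tff3 and Spink4 had lower values, 0.25, 0.27 and 0.35. Like Muc2, they entered the score that chose the members, which can by itself change their values. In 35 of the 64 members Muc2 had no count, so many of its ranks were tied. All rho values here are descriptions across cells of 1 library that share depth differences, and Muc2 itself had a rho of 0.17 with the total count.

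The share of goblet members did not differ between the genotypes beyond the spread of the cultures. Members made up 2.91% of the filtered barcodes assigned to control culture 1 (95% exact interval 1.34 to 5.46%) and 4.31% of 325 in control culture 2 (2.37 to 7.12%). They made up 3.21% of 249 in mutant culture 1 (1.397 to 6.23%), 1.97% of 254 in mutant culture 2 (0.642 to 4.53%) and 5% of 180 in mutant culture 3 (2.31 to 9.28%). The highest and the lowest culture were both mutant, and the means were 3.61% ± 0.986 (SD, n = 2) in control and 3.39% ± 1.52 (SD, n = 3) in mutants (two-sided exact permutation p = 1, smallest possible 0.2). The sign of this difference of −0.216 percentage points turned when control culture 2 (0.481) or mutant culture 2 (0.496) was left out. Goblet members were 47.4% and 46.7% of the goblet and Paneth barcodes together in control cultures and 53.3%, 29.4% and 60% in mutants (exact permutation p = 1). These are percentages of sorted cells, and the sort gate is not known.

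Depth behind the gene comparison overlapped between the groups. Median counts per member were 24020 and 17356 in controls and 14811.5, 17332 and 18178 in mutants (two-sided exact permutation p = 0.4).

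Etv1, the targeted gene (chromosome 12, 38779380 to 38870484, plus strand, GENCODE vM21 on mm10), gives no check of the labels in these cells. It had 0 counts in the members of control cultures 1 and 2 and of mutant cultures 1 and 2, which allows up to 12.3, 12.6, 21.1 and 33.7 CPM. Mutant culture 3 held 11 counts, all in the member with Gcg described above. In other cells Etv1 stood at 6.44 and 6.25 CPM in controls and at 2.98, 2.81 and 0 in mutants.

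No gene passed the test of genotype in goblet members. Counts were summed over the members of each culture and tested with edgeR's quasi-likelihood test, which called 0 of 3156 genes (0%) at an adjusted p under 0.05. At an unadjusted p under 0.05 there were 61 genes (31 higher and 30 lower in mutants), and DESeq2 also called 0, with 24 at an unadjusted p under 0.05. Without control culture 1 the count was 32 and without control culture 2 it was 18, each with 1 control left that is assumed to vary like the mutants. The 32 include Zg16, Mptx1, Gcg, Ghrl, Defa17, Ly6e, Olfm4, Lyz1 and the cycling gene Ube2c, and the 18 include Gcg, Ghrl, Defa17, Lyz1 and Acta1. The 8 genes described next have the smallest p in each direction and none of them passed.

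Muc2 was among the lowest. Its levels, 74.0 and 904 CPM in control and 70.5, 78.5 and 57.8 CPM in mutants, place control culture 1 within the range of the mutants. The fitted log2 difference was −2.91 (SE 0.71), with an adjusted p of 0.934 in edgeR's quasi-likelihood test. Without control culture 1 it was −3.82 and without control culture 2 it was −0.19, so the value rests on control culture 2. That culture held 1 member with 116 of its 216 Muc2 counts.

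Defa17 had the smallest p in the test. It stood at 2974 and 308.6 CPM in control and at 78.7, 19.6 and 97.9 in mutants, with a log2 difference of −4.57 (SE 0.71, adjusted p = 0.0517 in edgeR's quasi-likelihood test). Both controls lay above all mutants, but of the 724 counts of control culture 1, 718 came from 1 member. Without control culture 1 the value was −2.17 and without control culture 2 it was −5.43. Defa17 was called in both, each with 1 control left, whose own spread could not be estimated. The log2 difference was −1.28 without the member richest in Muc2 of each culture. The sign turned to 3.94 with the second hashtag assignment and to 1.32 among members outside the top 100 by the Paneth score. Ang4, of the same group of antimicrobial genes, was at 1841 and 1306 CPM in control and at 1049.9, 146 and 747 in mutants (−1.32, SE 0.46, adjusted p = 0.999).

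Acta1, skeletal muscle actin, was at 247 and 222 CPM in control and at 134, 11.2 and 77.1 in mutants, and was found in 24 members. Bex1, a small adaptor protein, was at 381 and 297 CPM in control and at 120, 196 and 159 in mutants. For both, controls and mutants did not overlap, which was true of 14.5% of the 3156 genes. Their log2 differences were −1.61 (SE 0.45) and −1.15 (SE 0.33), each with an adjusted p of 0.999 in edgeR's quasi-likelihood test. Acta1 was called without control culture 1 (adjusted p = 0.0297) and without control culture 2 (0.0116), while Bex1 was called in neither.

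On the higher side, Ly6e, a surface protein of the Ly6 family, was at 164 and 79.5 CPM in control and at 641, 449 and 303 in mutants. It was spread over cells, with counts in 8 of 9 and 9 of 14 control members and in 7 of 8, 5 of 5 and 8 of 9 mutant members. Its log2 difference was 1.85 (SE 0.41, adjusted p = 0.496 in edgeR's quasi-likelihood test), and it was called only without control culture 1 (2.44, adjusted p = 0.00032). In other cells of the same cultures it was at 70.6 and 23.5 CPM in control and at 154, 128 and 129 in mutants, and the difference between the 2 classes of cells was 0.07 (SE 0.39, adjusted p = 1).

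Gm11808, a predicted gene listed as protein coding, was at 643 and 676 CPM in control and at 1418, 2617 and 1378 in mutants (log2 difference 1.402, SE 0.31, adjusted p = 0.496 in edgeR's quasi-likelihood test). It had a count in all 64 members, and was called without control culture 2 (adjusted p = 0.0395). Cyba, a subunit of NADPH oxidases, was at 103 and 71.2 CPM in control and at 233, 168 and 202 in mutants. Lin7c, a polarity scaffold, was at 20.5 and 29.3 CPM in control and at 84.6, 56.1 and 77.1 in mutants. The mutants lay above the controls for all 4 of these genes, which were picked for their small p, and 14.5% of the 3156 genes had groups that did not overlap.

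**Figure D5:**
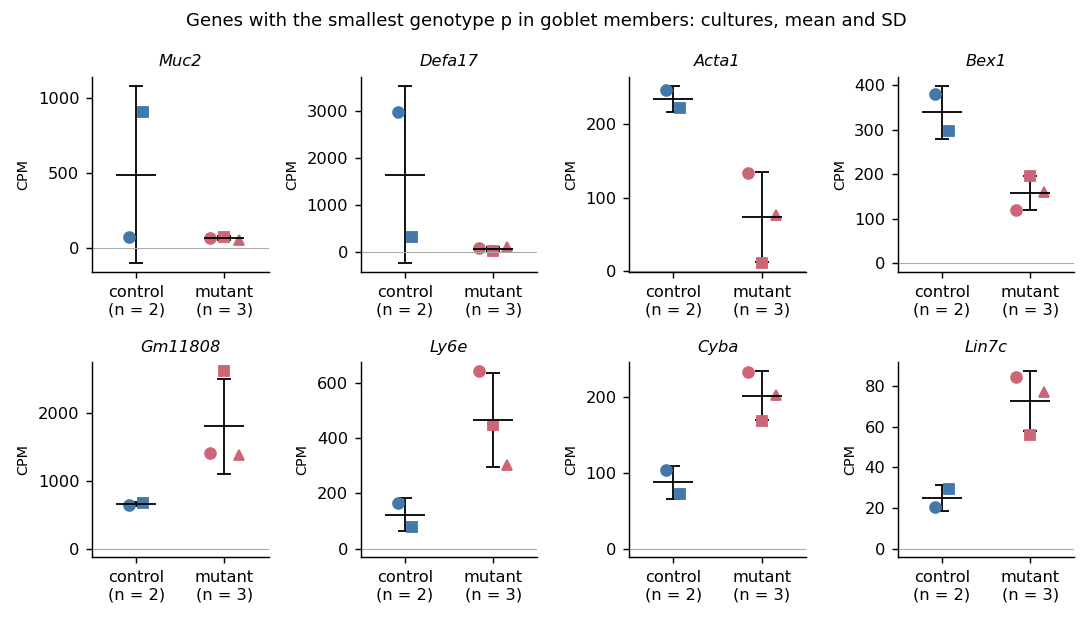
Levels in goblet members, as CPM, of the 4 genes with the smallest p below zero (top) and above zero (bottom), with 1 point per culture (circle, square and triangle for cultures 1, 2 and 3), the mean as a bar and the SD as a whisker. For Muc2 only control culture 2 stands above the mutants, and for Defa17 both controls do, while Ly6e, Gm11808, Cyba and Lin7c separate the groups with no gene passing the adjusted threshold.

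Genotype values were also described by gene group, beside those of all genes, of which 1573 were above and 1583 below zero with a median of −0.00. None of the genes in any list was called. The goblet rule genes tested were below zero in 4 of 4 (median −0.29): Spink4 −0.32 (SE 0.28), Tff3 −0.26 (SE 0.27), Fcgbp −0.12 (SE 0.41) and Muc2 as above. Lyz1, of the Paneth rule genes, was at −0.23 (SE 0.65), and it was called below zero without control culture 1 (−1.08) and above zero without control culture 2 (1.89). Genes of the goblet cell body were below zero in 10 of 11 (median −0.22), with Cgref1 at −1.23. Secreted goblet proteins were above zero in 3 and below in 3 of 6 (median 0.04). Goblet transcription factors were above zero in 6 of 9 (median 0.11), with Spdef at −0.14 (SE 0.39) and Creb3l1 at 0.12 (SE 0.39).

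Secretory machinery lists had medians near zero. O-glycosylation genes were below zero in 9 of 14 (median −0.14), and the 2 with the smallest p were Galnt1 (1.25) and Galnt6 (−0.88). Folding genes were below zero in 14 of 22 (median −0.04), with Ero1l, an oxidase of the endoplasmic reticulum, at 1.20. Translocation and transport genes were above zero in 14 of 27 (median 0.06), with Sec31a and Tmed6, parts of vesicle transport, at −1.01 and −1.003. Granule exocytosis genes were below zero in 4 of 5 (median −0.15).

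Paneth markers outside the rule were below zero in 5 of 5 (median −0.87), among them Defa30 (−1.71, SE 0.75) and Mmp7 (−1.32, SE 0.65). Defa30 is an alpha-defensin, like Defa17 and Defa24 of the rule, so it is no separate check on them. Their summed level in members was 3400 and 3110 CPM in controls and 2400, 1067 and 780 in mutants, so controls and mutants did not overlap, as for 14.5% of single genes, and the sum was not tested. Other alpha-defensins turned with the control left out: Defa23, and Defa31 with the same values, were at 3.48 without control culture 1 and at −1.77 without control culture 2. Cycling markers were above zero in 6 of 7 (median 0.32) and stem markers in 4 of 6 (median 0.30), with Olfm4 at 1.23 (SE 0.65). Of the PEA3 and ERK feedback genes, the group to which Etv1 belongs, 2 of 14 had enough counts: Egr1 (0.20) and Phlda1 (0.13).

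The difference in genotype between members and all other cells was tested as an interaction. Of 10335 genes, 15 (0.145%) passed in edgeR's quasi-likelihood test, 10 above and 5 below zero. The p-values of this fit use a spread pooled over genes, not that of each gene between cultures. For Reg4, a value of 1.54 (SE 0.30, adjusted p = 5.32e-04) came with member levels that overlapped between genotypes, as given above, and with lower levels of other cells in mutants: 123 and 195 CPM in control against 58.3, 30.3 and 64.6. It was not called without control culture 2 (1.52) or mutant culture 2 (0.91). For Sct the value was 1.80 (SE 0.39, adjusted p = 0.00336), and other cells were at 62.1 and 317 CPM in control and at 34.3, 44.6 and 14.1 in mutants. It was 3.70 without control culture 1 and 0.17 without control culture 2, and was not called without control culture 2, mutant culture 2 or mutant culture 3. For Gm11808 the value was 1.39 (SE 0.28, adjusted p = 6.33e-04), while other cells were at 1335 and 1096 CPM in control and at 995, 1161 and 1048 in mutants. It was called in 7 of 14 alternatives. It was not called with the second hashtag assignment (0.22), another hashtag scaling (0.43), top 60 (1.12), top 150 (0.80), members outside the Paneth top 100 (1.07), or without control culture 1 (1.27) or mutant culture 2 (1.18).

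The calls of these differences changed with the hashtag assignment, with the members that entered and with the cultures left out. Which members entered, and how many, also differed between these settings, and the cause was not tested. The second hashtag assignment called 11 genes and shared 1, Ghrl, with the 15. Without mutant culture 2 the count was 3, and without control culture 1 it was 28. Without members that held enteroendocrine counts it was 9, all among the 15.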

How the data were processed

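One RNA library and 1 hashtag library of pooled, sorted organoid cells were used. The deposited RNA matrix holds estimated counts (expected counts per gene and barcode, not all whole), and the deposited hashtag matrix holds whole counts. The submitters' processing notes name mm10 as build and, as tools, Seurat 4.3.0, Salmon 1.4.0, Cell Ranger 6.1.0 and alevin. What each tool did was not given in the sources used here. Both libraries hold the same 3409 barcodes. The labels gave the hashtags of each genotype.

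Barcodes needed at least 500 genes, at most 25% mitochondrial counts and at least 3000 counts. Cultures were assigned with HTODemux (Seurat 5.3.0, positive quantile 0.99), and barcodes with several hashtags or none entered no culture comparison. No doublet caller was run. The members and gene lists were chosen with earlier results of these data known. The enterocyte class is the top 100 by enterocyte markers outside the union. CPM values come from summed counts, and levels of different genes are not compared.

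Genotype was tested on rounded sums per culture (2 control, 3 mutant; mutant minus control) with edgeR 4.0.16 (TMM, filterByExpr, quasi-likelihood, Benjamini-Hochberg, threshold 0.05), and the interaction with culture as a block. DESeq2 1.42.0 was an alternative. The fits were also run on simulated counts with the same spread for every gene. That simulation held no single members with most of a gene's counts, so it is no check of the fits for such genes. Folds against other cells used a pseudocount of 10 CPM and genes with at least 10 counts. Shares and depths had a two-sided exact permutation test over 10 splits. Cultures, which the labels call biological replicates, were the units of the tests. In the gene tests the p-values use a spread moderated over all genes. In the main interaction fit and the genotype fits with 1 control left, this spread was pooled over genes and not that of each gene. In thinning to 3000 counts, 4 other barcodes fell short after rounding and were left out. Genes were named by a rule: Etv1, the rule genes, the 4 smallest p in each direction, the 20 largest folds, the 8 closest to Muc2 and, of each list, up to 4 genes of highest CPM and up to 2 of smallest p. Txndc5, Qsox1 and Pdia5 are exceptions, and the check markers were also named. The alternatives were MULTIseqDemux, another scaling of hashtags, top 60 and top 150, other size factors, no count filter, thinning and leaving out each culture. The alternatives on which members entered (3) were chosen after seeing the data.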

Additional observations from a re-analysis of the deposited data

Results flagged for a closer look

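The results below are genes whose difference between mutant and control in goblet members differed from that in all other cells of the same cultures, by edgeR's interaction test with culture as a block. Values are log2 differences of differences, and 15 of 10335 genes passed.

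Some were spread over many members. Reg4 was at 1.54, Gm11808 at 1.39, Sct at 1.80 and Mt1, a metallothionein, at −0.79. Mt1 was at 15449 and 9789 CPM in control and at 9590, 12172 and 7832 CPM in mutant members, and at 17852 and 13855 against 19645, 23433 and 14648 CPM in other cells. For Reg3g and Acta1, in contrast, most counts of 1 control culture came from 1 member. Reg3g, an antibacterial lectin, was at −1.92, with 41 of its 46 counts in the members of control culture 2 in 1 member. Acta1 was at −2.22, with 43 of 60 counts of control culture 1 in 1 member.

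Mptx1, a pentraxin of the small intestine, was at −5.47, and 77 of its 92 counts in control culture 2 came from 1 member. Defa17, a gene of the rule that chose the members, was at −2.48, with 718 of 724 counts of control culture 1 in 1 member. Defa43 was at 6.78, with all 20 counts of mutant culture 2 in 1 member. Cd177, a surface glycoprotein, was at 3.11, with 26 counts over 4 members of mutant culture 1 and 13 of those in 1 member.

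For the remaining genes, most counts in members of mutant culture 3 came from 1 member, which held 519 counts of Gcg, 180 of Ghrl, 24 of Chga, 12 of Scgn and 11 of Etv1. Their fitted values were 10.002 for Gcg, 20.4 for Ghrl, 10.9 for Chga, 11.9 for Scgn and 10.7 for Etv1. These values are no folds, since members of most other cultures had no count and the fit then depends on its prior count. Without members that held enteroendocrine counts, Gcg, Chga, Scgn, Etv1, Cd177 and Mt1 were no longer called, while Ghrl still was (15.2). Ghrl was also called without mutant culture 3 (16.01). With the second hashtag assignment, Ghrl alone of the 15 was called.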

How the results depend on the processing

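The count of 0 genotype calls in goblet members kept its side under MULTIseqDemux, the other hashtag scaling, top 60, top 150, other size factors, no count filter, DESeq2, thinning, members outside the Paneth top 100 and members without the one richest in Muc2. It was 1 (Defa17) without members holding enteroendocrine counts, a choice made after seeing the data, and ranged from 0 to 32 when 1 culture was left out (32 without control culture 1, 18 without control culture 2). The 15 interaction calls became 9 without members holding enteroendocrine counts and 25 among members outside the Paneth top 100, and ranged from 3 (without mutant culture 2) to 28 (without control culture 1). The cause was not tested. Fewer members entered the settings that left out members or a culture.

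The share difference (−0.216 percentage points) was 0.193 with the other hashtag scaling and 0.839 with top 150, and ranged from −1.02 to 0.496 over cultures left out. The depth difference of −3914 counts kept its sign, from −7246 to −582 over cultures left out. Among named genes, the genotype value of Defa17 turned to 3.94 with MULTIseqDemux and 1.32 outside the Paneth top 100. Interaction values turned for Gcg (−3.96 without members holding enteroendocrine counts, −4.84 without mutant culture 3, and 16.4 at most, without control culture 1), Defa43 (−3.75 without mutant culture 2, 10.02 without control culture 1 and 14.3 without the members richest in Muc2), Defa17 (1.31 with MULTIseqDemux, 3.11 outside the Paneth top 100, 0.23 without the members richest in Muc2), Reg4 (−0.22 with MULTIseqDemux) and Sct (−0.025 with MULTIseqDemux). No paired analysis was possible because the labels give the cultures no shared replicate numbers. With 5 to 14 members per culture, depth limits which low genes can be compared: 3156 of 22253 genes entered the test.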
